A study of Mus musculus with 24 samples.

Results

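The genes described here are the abundant long intergenic noncoding RNAs (lincRNAs) of the mouse striatum. They are the rows of the deposited count table with the biotype lincRNA, on an autosome, whose mean over 24 libraries was at least 2 CPM (counts scaled to the total of each library). Rows starting at 28000000 to 44000000 on chromosome 7 were left out, which removed 3 genes that reached the level (Gm37494, Gm45768 and Gm26762). This left 271 genes of 54532 rows in the table and of 4915 autosomal lincRNA rows. The members were chosen by their mean level, so their abundance is given as a description. The members just inside the limit were Gm49064 at 2.005 CPM and Gm6297 at 2.002 CPM, and the genes just outside were Gm44698 and Gm30731, each at 1.96 CPM. All 271 passed the filter on low counts, and 241 reached 2 CPM in the mean of every genotype. The other 30 reached it in some genotypes and not in others, so a level that differs between genotypes is part of how they entered. Of these 30, 8 are called below: Gm44866, Gm36737, Gm15721, Gm16702, 5033430I15Rik, Gm4221, A730063M14Rik and Gm47358. A730063M14Rik was called lower in Q175 against WT only, a call lost in 9 of 24 fits with 1 library left out.

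A lincRNA is a long transcript that lies between protein-coding genes and has no long open reading frame. Many are spliced and polyadenylated like messenger RNAs, and many stay in the nucleus, where a few act as scaffolds of nuclear bodies or regulate transcription, while others serve mainly as precursors of microRNAs. Brain tissue expresses an unusually broad set of them, often in a single class of neurons.

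RNA was sequenced from the striatum of 24 C57BL/6 mice, 1 library per animal, taken from 1 hemisphere, frozen and extracted with Trizol. There were 4 genotypes of 6 animals (3 male and 3 female, numbered here as replicates 1 to 3 and 4 to 6): wild type (WT), deletion of Tyrobp in animals without a Q175 allele (TyrobpKO), heterozygous Q175 (Q175), and heterozygous Q175 with deletion of Tyrobp (Q175_TyrobpKO). The Q175 allele lengthens the CAG tract of mouse Htt and serves to model Huntington's disease, and Tyrobp codes for a signalling adaptor of microglial receptors. The design asks what the Q175 allele changes in the presence and in the absence of Tyrobp. The labels state neither the age nor how the deletion was made. The animal numbers of all TyrobpKO and Q175_TyrobpKO mice share a prefix, all Q175 mice carry another, and the WT mice carry their own except replicate 3, which has that of Q175. Q175 against WT is therefore partly a contrast of prefixes, while Q175_TyrobpKO against TyrobpKO is not. Both contrasts of the Tyrobp deletion, TyrobpKO against WT and Q175_TyrobpKO against Q175, are wholly contrasts of prefixes.

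Total counts ran from 25482686 to 34626720 per library, and the members took 0.965% to 1.36% of them. Markers of striatal projection neurons, the principal neurons of this tissue, were abundant in every library, with none of 25 at 0 and a summed level of 7545 to 19671 CPM. Markers of cortical excitatory neurons (15 genes) summed to 251 to 1346 CPM, a wide range within every genotype. Markers of choroid plexus (15 genes) summed to 321 to 1215 CPM in 23 libraries and to 6309 CPM in Q175 replicate 3. In bulk tissue, fewer cells of a type and less RNA per cell cannot be told apart.

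Several members are transcripts from which microRNAs are cut, and for many of them RefSeq gives the mature sequences. It places 63 mature microRNAs on the same strand within 15 members (build GRCm38.p6). Mir124a-1hg and Mir124-2hg also hold annotated microRNAs on their strand and are not among these 15. All 3 genomic copies of miR-9, a microRNA of neural progenitors and neurons, lie within members: Gm3764 on chromosome 3, C130071C03Rik on chromosome 13 and Mir9-3hg on chromosome 7. They encode the same mature pair. C78859 on chromosome 8 holds miR-138-5p, a neuronal microRNA known to act at dendritic spines, and miR-138-2-3p, and Mirg on chromosome 12 holds 26 mature microRNAs. A230057D06Rik on chromosome 7 holds the miR-344 cluster, and miR-410-3p of Mirg shares its seed with miR-344d-3p and miR-344e-3p of that member. Within Mirg, miR-453 and miR-496a-5p share a seed. Other seeds, shared within A230057D06Rik and between Gm3294 and Mir670hg, are not printed. The sequences below are for hosts that the results turn on and for the shared seeds named above. They are from RefSeq, printed 5′ to 3′ with the seed (bases 2 to 8) in capitals.
mmu-miR-9-5p: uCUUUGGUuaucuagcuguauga
mmu-miR-9-3p: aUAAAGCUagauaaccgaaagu
mmu-miR-138-5p: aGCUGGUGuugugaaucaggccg
mmu-miR-138-2-3p: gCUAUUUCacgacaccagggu
mmu-miR-410-3p: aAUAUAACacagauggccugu
mmu-miR-344d-3p: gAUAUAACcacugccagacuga
mmu-miR-344e-3p: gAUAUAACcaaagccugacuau
mmu-miR-453: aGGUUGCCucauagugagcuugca
mmu-miR-496a-5p: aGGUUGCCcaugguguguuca
mmu-miR-134-5p: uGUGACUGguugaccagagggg
mmu-miR-5103: uCAUCCGGgauccccugagg
miR-134-5p is one of the microRNAs of Mirg, known for limiting the size of dendritic spines, and miR-5103 lies in Gm37233. Counts of a host row measure the long transcript and not the mature microRNA.

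The members spanned a wide range of levels. The median of the 271 means was 4.78 CPM, 67 members reached 10 CPM, 9 reached 100 CPM and 140 were under 5 CPM. Per kilobase of gene length, which allows levels of different genes to be compared, Malat1 was highest at 475 CPM per kb. Malat1 is retained in nuclear speckles, where splicing factors gather. 2900097C17Rik followed at 234 CPM per kb and Meg3, the maternally expressed RNA of the imprinted Dlk1-Dio3 region, at 201 CPM per kb. Gm10076 (102 CPM per kb), 6330403K07Rik (79.5), 1700020I14Rik (56.1), Mir124a-1hg (30.2), the host of a miR-124 copy and so of the most abundant neuronal microRNA family, and B230209E15Rik (29.1) completed the 8 highest. The biotype lincRNA is that of the deposited table, and GENCODE M21 gives it to 262 of the 271 members. It lists 6330403K07Rik as protein-coding, and among the called members Gm1976 as a processed transcript and Gm4221 as antisense. Meg3 and Malat1 together took 52.2% to 66.6% of the members' counts in each library, so the share of counts on lincRNAs is mostly a statement about that pair.

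**Figure D1:**
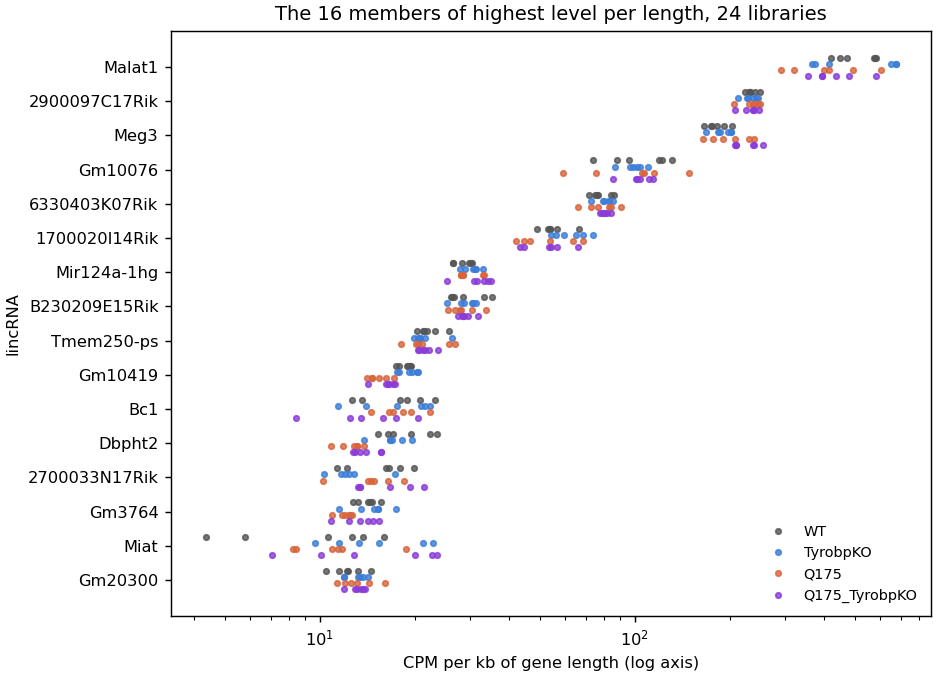
Level of the 16 members of highest CPM per kb in each library, on a log axis, with colours for the 4 genotypes of 6 libraries. Malat1 lies furthest to the right, the genotypes overlap for most of the 16, and Gm10419 and Dbpht2 sit lower in the Q175 libraries.

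None of these 8 members of highest level per length passed the test in a Q175 contrast. Calls rest on edgeR's quasi-likelihood test, with p-values adjusted by Benjamini and Hochberg's method over 19667 genes and a threshold of 0.05. Malat1 ranged from 2942 to 4077 CPM in WT (median 3649.9) and from 2028 to 4233 CPM in Q175 (median 2834), so the groups overlapped, and its log2 fold change was -0.30 ± 0.20 (SE, n = 6 and 6; adjusted p = 0.399). In the absence of Tyrobp it was -0.27 ± 0.19 (adjusted p = 0.525). 2900097C17Rik was almost level across genotypes, with medians of 1143 and 1144 CPM without the Q175 allele (Tyrobp present and absent) and of 1177 and 1167 CPM with it, and a log2 fold change of -0.00022 ± 0.055 in Q175 against WT. Neat1, the scaffold RNA of paraspeckles, had a log2 fold change of -0.27 ± 0.16 (adjusted p = 0.342). Of 20 listed paraspeckle protein genes none was called in either contrast, with median log2 fold changes of 0.017 and 0.042. Of 24 listed nuclear speckle genes, Clk4, a kinase of splicing factors, was lower in Q175 (-0.24 ± 0.06, adjusted p = 0.00873), and Luc7l, a splicing factor, was higher in Q175_TyrobpKO against TyrobpKO (0.16 ± 0.05, adjusted p = 0.0437).

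Among the 271 members, 35 were called in Q175 against WT, 7 higher and 28 lower. That is 12.9% of the members against 9.63% of all genes tested, 2.58% higher against 4.15%, and 10.3% lower against 5.47%. The median log2 fold change of the members was -0.048, against 0.0073 for all genes, and it was 0.0088 where libraries were scaled by their total counts alone. With that scaling 44 members were called, 19 higher and 25 lower. It moved the median of all genes by 0.057, and the share of all genes called was not taken in that fit. Of the 28 called lower, 6 fell by more than 1 on the log2 scale. Among all genes, 228 of 1893 called changed by more than 1 in either direction. Of the 6, at least Gm47358, Gm15721 and Gm36737 do not reach 2 CPM in every genotype. Large falls of such members are partly set by how members were chosen. Among the 629 other tested autosomal lincRNAs, which lie below the level, 25 were called (3.97%), and of protein-coding genes 11.1%.

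In Q175_TyrobpKO against TyrobpKO, 21 members were called, 6 higher and 15 lower. That is 7.75% against 5.86% of all genes, 2.21% higher against 2.78%, and 5.54% lower against 3.08%. The median was -0.0055 against -0.0019 for all genes, and 0.052 under total-count scaling, where 29 members were called, 15 higher and 14 lower. That scaling moved the median of all genes by 0.058, and the share of all genes called was not taken there. Both contrasts are over libraries with no animal in common. Of the 271 members 200 had the same sign in both (73.8%, against 69.4% of all genes). Across members, which are not independent replicates, the log2 fold changes had a Pearson correlation of 0.769 and a Spearman correlation of 0.676. Across all genes these were 0.627 and 0.497. The 18 members called in both, 4 higher and 14 lower, make up 51.4% of the first list and 85.7% of the second. For all genes these shares were 41.4% and 67.9%. Counting only the 241 members that reach 2 CPM in every genotype, a choice made after the values were seen, 28 were called in the first contrast (11.6%) and 14 in the second (5.81%), the latter near the 5.86% of all genes. Of the 35 called in Q175 against WT, 34 kept their sign in the other contrast, and all 21 of the second kept it in the first. Of all genes called, 1838 of 1893 and 1144 of 1153 did so, so this is no trait of the members.

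**Figure D2:**
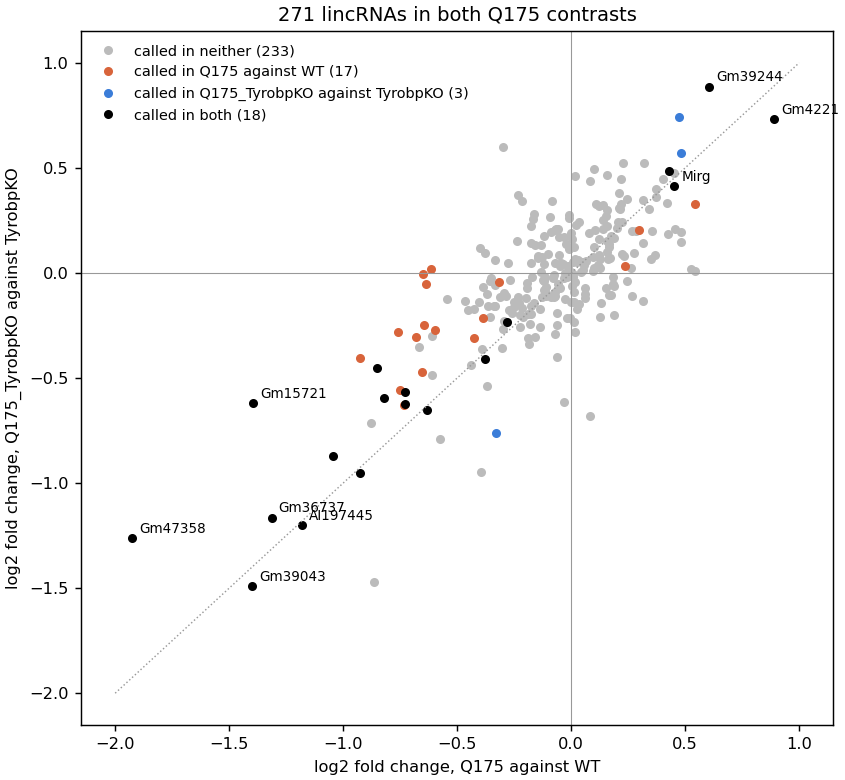
Log2 fold change of each of 271 members in Q175 against WT (horizontal) and in Q175_TyrobpKO against TyrobpKO (vertical), coloured by call, with a dotted line of equal change. The 18 members called in both all lie at the lower left or the upper right, Gm47358 and Gm39043 furthest to the lower left.

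In Q175 against WT 18 members had groups that did not overlap, 2 with Q175 above and 16 below (6.64% of the members, against 4.08% of all genes, of which 1.69% above and 2.39% below). In Q175_TyrobpKO against TyrobpKO there were 11, 4 above and 7 below (4.06%, against 4.49%, of which 2.22% and 2.27%). Among the 241 members at the level in every genotype there were 15 and 7 (6.22% and 2.90%). No member had such groups in either contrast of the Tyrobp deletion, against 0.356% and 0.463% of all genes. AI197445, Gm36737, Gm47358, Gm43597 and Gm10419 were lower in all 12 Q175 carriers than in all 12 animals without the allele. That is 1.85% of the members, against 1.14% of all genes with carriers apart from the others in either direction and 0.722% with carriers below. Gm36737 and Gm47358 do not reach 2 CPM in every genotype and entered through animals without the allele, so their separation is partly set by how members were chosen. Among the 241 members that reach the level in every genotype it was 3 (1.24%). No member had all carriers above, against 0.422% of all genes. AI197445 on chromosome 13 (107469822 to 107482718, plus strand) lies 447696 bp from the nearest coding gene, Kif2a. Its level was 7.01, 7.73 and 12.05 CPM (lowest, median and highest) in WT and 4.93, 6.402 and 10.7 CPM in TyrobpKO. In the carriers it was 3.17, 3.51 and 4.82 CPM in Q175 and 2.002, 2.73 and 4.86 in Q175_TyrobpKO. Its log2 fold changes were -1.18 ± 0.19 (adjusted p = 0.000102) and -1.20 ± 0.19 (adjusted p = 0.000178). Gm36737 on chromosome 7 fell from a median of 4.79 CPM in WT to 1.96 in Q175 (-1.31 ± 0.17, adjusted p = 7.57e-06) and from 3.08 in TyrobpKO to 1.40 in Q175_TyrobpKO (-1.16 ± 0.18, adjusted p = 0.000104). Gm47358 on chromosome 10 showed the largest drop of the members in Q175, from 3.32 to 0.943 CPM (-1.93 ± 0.28, adjusted p = 3.59e-05) and from 2.45 to 1.24 CPM (-1.26 ± 0.28, adjusted p = 0.00586).

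Gm10419 and Gm43597 changed less and with little scatter. Gm10419 on chromosome 5, at 17.4 CPM per kb the most abundant member called, had medians of 130 CPM in WT and 103 in Q175 (-0.28 ± 0.06, adjusted p = 0.00154) and of 133 and 113 in the absence of Tyrobp (-0.23 ± 0.06, adjusted p = 0.0123). Gm43597, also on chromosome 5, had 26.9 and 20.2 CPM (-0.38 ± 0.06, adjusted p = 0.000193) and 26.2 and 19.4 CPM (-0.41 ± 0.06, adjusted p = 0.000138). Gm10419 overlaps Gm42517 on the opposite strand, and because the strand setting of the counting is not stated, reads of such pairs cannot be told apart.

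Gm39043 on chromosome 7 and Gm15721 on chromosome 5 were also among the strongest declines in Q175 against WT. Gm39043 fell from 8.86 to 3.07 CPM in Q175 (-1.40 ± 0.23, adjusted p = 0.000254) and from 7.54 to 2.79 CPM without Tyrobp (-1.49 ± 0.23, adjusted p = 0.000238). Gm15721, whose start lies 154 bp from that of Mtus2 on the other strand, fell from a median of 4.18 to 1.51 CPM (-1.40 ± 0.18, adjusted p = 4.51e-06) and from 3.40 to 2.10 CPM (-0.62 ± 0.17, adjusted p = 0.0295, up to 0.0790 when 1 of 8 libraries was left out). Mtus2, which codes for a microtubule-associated protein, had log2 fold changes of -0.19 ± 0.07 (adjusted p = 0.10) and -0.12 ± 0.07. Further members called lower in both contrasts were Gm44866, 5033430I15Rik, Gm37233, 4833415N18Rik, Gm38101, Gm38413 and Gm26645. In the second contrast the calls of Gm37233, Gm26645, Gm38413 and 4833415N18Rik were lost in 14, 6, 2 and 1 of 24 fits with 1 library left out (adjusted p up to 0.109, 0.128, 0.0600 and 0.0579), and in the first that of Gm26645 in 4 (up to 0.0834). Dbpht2, at 15.6 CPM per kb, was lower in Q175 (-0.60 ± 0.09, adjusted p = 0.000114), and its other log2 fold change was -0.27 ± 0.09 (adjusted p = 0.0884).

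**Figure D3:**
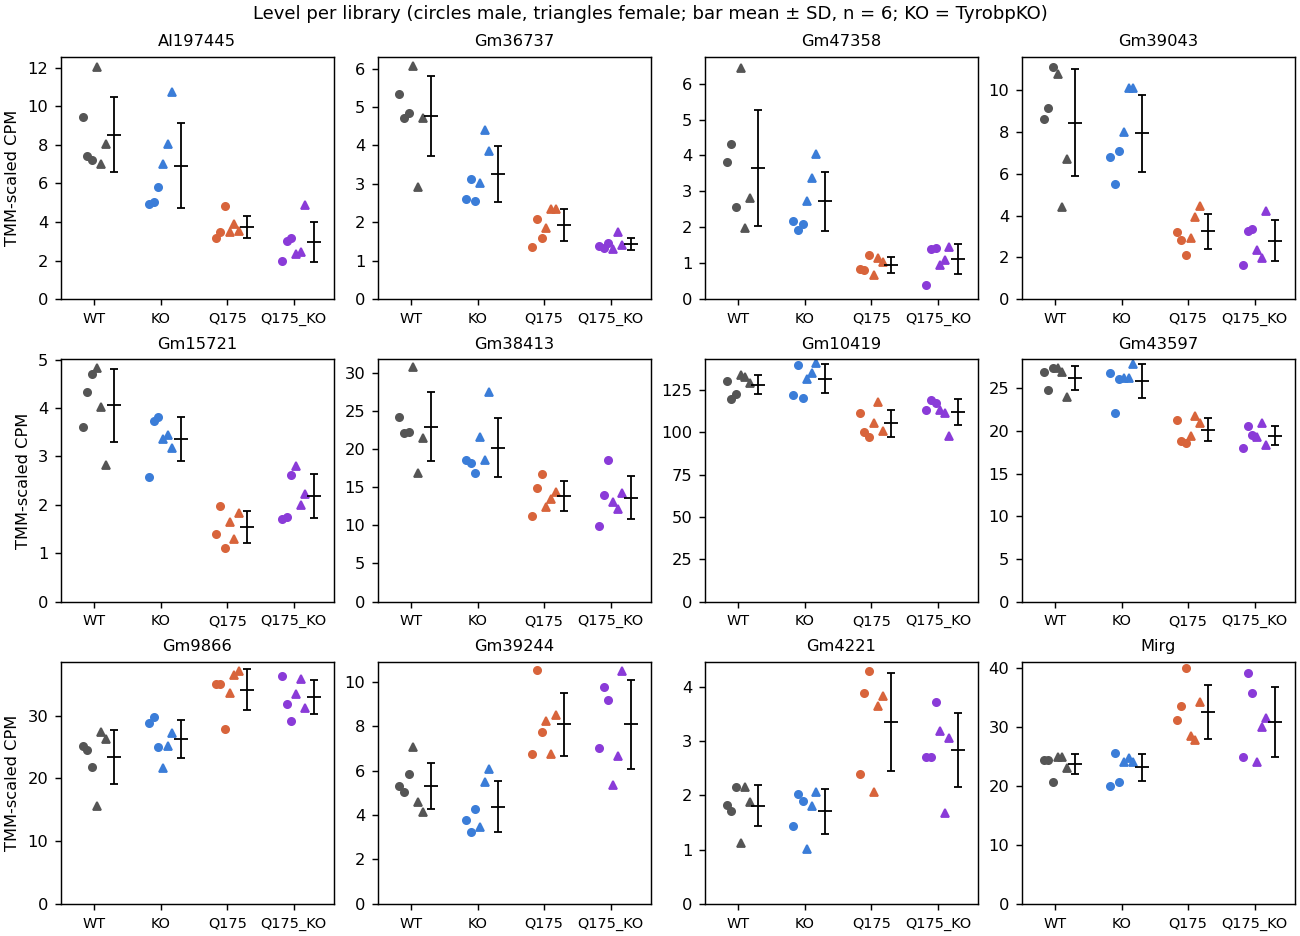
TMM-scaled CPM of 12 called members in every library, male as circles and female as triangles, with the mean ± SD of 6 libraries per genotype, axes from 0. In the first 3 panels and in Gm10419 and Gm43597 every carrier of Q175 lies below every other animal, and in the last row carriers lie mostly above.

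Markers of striatal projection neurons fell beside these members. Of 25 such genes 21 were called lower in Q175 against WT, among them Ppp1r1b and Drd1, and 11 in Q175_TyrobpKO against TyrobpKO, with medians of -0.70 and -0.45 on the log2 scale. Their summed level was 12561 to 19671 CPM in WT, 11739 to 18604 in TyrobpKO, 8567 to 11453 in Q175 and 7545 to 11693 in Q175_TyrobpKO, so carriers did not overlap the rest. Their part in the fall of the lincRNAs was not tested. Of 15 astrocyte markers 4 were lower in each contrast and 2 higher in the first, and in the second 5 of 18 oligodendrocyte and 5 of 15 vascular markers were lower. In the first contrast 1 of 15 vascular markers and 1 of 14 tested thalamic, septal and pallidal markers were lower and 1 of 10 oligodendrocyte precursor markers was higher. Of 15 choroid plexus markers 4 were higher in the first contrast (Ttr, Aqp1, Sostdc1 and Tmem72) and none in the second, with medians over the list of 2.95 and 1.75. Their summed level had medians of 397 CPM in WT and 476 in Q175, where replicate 3 alone had 6309. In TyrobpKO and Q175_TyrobpKO the medians were 448 and 481 CPM, with a highest library of 1215 in the latter. Of 13 immediate early genes, which neuronal activity induces, Egr2 was lower in both contrasts (-1.78 ± 0.45, adjusted p = 0.0158, and -1.699 ± 0.45, adjusted p = 0.0306) and Dusp1 in the first (-0.70 ± 0.19, adjusted p = 0.0240), with medians over the list of -0.66 and -0.50. The part of these lists in the members' changes was not tested. None of 12 interneuron, 15 cortical and 18 microglial markers was called in either.

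Members called higher were fewer and smaller. Gm9866 on chromosome 12, 173631 bp beyond the 3′ end of Sox11 on the same strand, had medians of 24.8 CPM in WT and 35.0 in Q175 (0.54 ± 0.10, adjusted p = 0.000853), with all 6 Q175 libraries above all 6 WT. Without Tyrobp it had 26.2 and 32.7 CPM (0.33 ± 0.10, adjusted p = 0.0565). Sox11, a transcription factor of immature neurons, was itself higher in both (0.48 ± 0.12, adjusted p = 0.0082; and 0.65 ± 0.12, adjusted p = 0.00095). Gm4221 on chromosome 18, divergent from Zfp608, rose from 1.86 to 3.74 CPM (0.89 ± 0.21, adjusted p = 0.0066) and from 1.85 to 2.88 CPM (0.73 ± 0.21, adjusted p = 0.038). Gm39244 within Zfhx3 was higher in both (0.60 ± 0.17, adjusted p = 0.0242; 0.89 ± 0.18, adjusted p = 0.00222), and so was 4932422M17Rik (0.43 ± 0.14, adjusted p = 0.0494; 0.49 ± 0.14, adjusted p = 0.0333), which lost its calls in 18 and 9 of 24 fits with 1 library left out (adjusted p up to 0.109 and 0.0819) and overlaps AI480526 on the opposite strand. CT486005.1 and Gm16702 passed the threshold in Q175_TyrobpKO against TyrobpKO and not in Q175 against WT, with 0.74 ± 0.18 and 0.57 ± 0.17 there and 0.47 ± 0.18 and 0.48 ± 0.17 in the other. No difference between the contrasts was called for them. Leaving out 1 library at a time took away the first call of Gm39244 in 5 fits (adjusted p up to 0.0736), the second of Gm4221 in 8 (up to 0.0963), that of Gm16702 in 8 (up to 0.106) and that of CT486005.1 without TyrobpKO replicate 3 (0.0513).

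The Dlk1-Dio3 region on chromosome 12 is an imprinted domain whose maternal chromosome makes Meg3, Rian and Mirg, a series of noncoding transcripts that carry small nucleolar RNAs and microRNAs, and whose paternal chromosome makes Dlk1, Rtl1 and Dio3. Of 14 listed genes of the region and its flanks 13 were tested, and 3 were called higher and none lower in each Q175 contrast, with medians of 0.086 and 0.10. Mirg (chr12:109729764-109749460) had 20.8, 24.4 and 25.03 CPM in WT (lowest, median and highest) and 27.9, 32.4 and 40.1 in Q175, so that all 6 Q175 libraries lay above all 6 WT. It had 19.97, 24.1 and 25.6 CPM in TyrobpKO and 24.2, 30.8 and 39.2 in Q175_TyrobpKO, which overlap. Its log2 fold changes were 0.45 ± 0.10 (adjusted p = 0.00442) and 0.41 ± 0.10 (adjusted p = 0.0145; 0.0501 without Q175_TyrobpKO replicate 2). Rian, annotated as a processed transcript and so no member, rose by 0.23 ± 0.06 (adjusted p = 0.00963) and 0.29 ± 0.06 (adjusted p = 0.00251), and Begain, which codes for a postsynaptic protein and flanks the region, by 0.17 ± 0.05 and 0.27 ± 0.05. Meg3 had 0.14 ± 0.08 (adjusted p = 0.307) and 0.25 ± 0.08 (adjusted p = 0.0534), with all 6 Q175_TyrobpKO libraries (3775 to 4624 CPM) above all 6 TyrobpKO (3048 to 3657). Rtl1, on the paternal side, had -0.40 ± 0.13 (adjusted p = 0.052) and -0.30 ± 0.13 (adjusted p = 0.211).

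**Figure D4:**
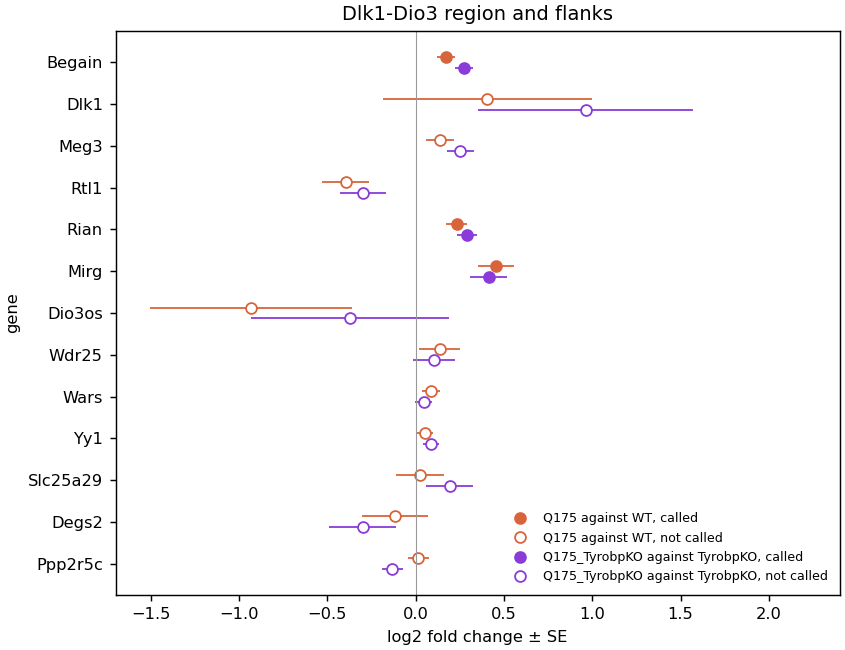
Log2 fold change ± SE of 13 tested genes of the Dlk1-Dio3 region and its flanks in both Q175 contrasts, filled where called. Rian, Mirg and Begain lie to the right of 0 and are filled in both, and Rtl1 lies to the left and is open.

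Of the 3 hosts of miR-9, none was called. Gm3764 had a log2 fold change of -0.23 ± 0.08 (adjusted p = 0.0636), with all 6 Q175 libraries below all 6 WT, and C130071C03Rik and Mir9-3hg had -0.06 ± 0.07 and 0.08 ± 0.08. C78859, the miR-138 host, was lower in Q175 (median 79.4 to 62.2 CPM, -0.32 ± 0.09, adjusted p = 0.0216), a call lost without WT replicates 1, 2 or 4 or Q175 replicate 5, and had -0.04 ± 0.09 without Tyrobp. Gm37233, which holds miR-5103, had -0.85 ± 0.14 (adjusted p = 9.72e-05) and -0.45 ± 0.13 (adjusted p = 0.0409). Of 17 tested genes in a list of small nucleolar RNA hosts only Rian was called. Outside that list, 9 members were searched out by an annotated small nucleolar RNA on their strand. Of these Gm10754 was called lower in Q175 against WT. Of 19 tested genes of the nuclear exosome, which degrades many noncoding RNAs, only Mpp6 was called, in Q175 (-0.31 ± 0.09, adjusted p = 0.0307).

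Members were set beside their nearest coding gene. The sign of the log2 fold change was shared by 156 of 271 pairs (57.6%) in Q175 against WT and by 152 (56.1%) in the contrast without Tyrobp. For the 629 less abundant lincRNAs the shares were 50.7% and 60.9%, below the members in the first contrast and above them in the second. In Q175 against WT the neighbour was called for 37 of all 271 members and for 7 of the 35 called members, and all 7 moved with the lincRNA. In the contrast without Tyrobp it was called for 23 of 271 and for 1 of the 21 called members. Gm38413, 1789 bp before the start of Rasgef1b, fell by 0.73 ± 0.14 on the log2 scale while Rasgef1b, a Ras guanine nucleotide exchange factor gene, fell by 0.39 ± 0.08. Gm46378 had -0.93 ± 0.24 and Vrk1, a kinase gene, -0.74 ± 0.10. Gm26580 had -0.76 ± 0.21 and Kcnq5, a potassium channel gene that it overlaps on the opposite strand, -0.44 ± 0.07. 5033430I15Rik, starting 245 bp from Atxn1, had -0.92 ± 0.20 and Atxn1, mutated in spinocerebellar ataxia type 1, -0.30 ± 0.07. The other 3 were Gm35394 inside Rasgef1b, Gm10754 overlapping Epyc and Gm9866 with Sox11. Leaving out 1 library took away the call of Gm26580 without WT replicate 4 (adjusted p = 0.0551) and that of Gm10754 without WT replicate 3, WT replicate 4 or Q175 replicate 3 (up to 0.0743). Where spans overlap, reads of the 2 genes may not be separable. Of 39 members that start within 1 kb of a coding gene on the opposite strand, 6 were called in either contrast (15.4%), against 32 of 232 others (13.8%) and 11.5% of all genes.

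The promoter windows of 2 falling members, of the divergent pair and of the rising Gm9866 show how unlike they are in base content. RefSeq windows of 250 bases before to 50 after the start matched 133 members by symbol, 112 of them within 1000 bp of the deposited start, and 14 of those belong to called members. Each window is given 5′ to 3′ on the strand of the gene named (build GRCm38.p6), and capitals mark matches on either strand to CCAAT, to GGGCGG (GC box) and to CANNTG (E-box). Matches to the TATA box (TATAAA), to the CRE core (TGACG) and to the AP-1 site (TGANTCA) were also sought and would be in capitals too. AI197445 is at chr13:107469572-107469871 (plus), Gm38413 at chr5:99753924-99754223 (minus), Gm9866 at chr12:27160467-27160766 (minus) and Mtus2 at chr5:147957070-147957369 (plus), where the start of Gm15721 falls at position 97.
AI197445: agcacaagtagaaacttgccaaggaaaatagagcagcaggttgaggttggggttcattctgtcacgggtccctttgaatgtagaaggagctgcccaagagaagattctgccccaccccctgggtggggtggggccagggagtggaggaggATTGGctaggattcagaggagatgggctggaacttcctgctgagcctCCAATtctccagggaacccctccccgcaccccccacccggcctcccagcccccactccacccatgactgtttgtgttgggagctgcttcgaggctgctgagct
Gm38413: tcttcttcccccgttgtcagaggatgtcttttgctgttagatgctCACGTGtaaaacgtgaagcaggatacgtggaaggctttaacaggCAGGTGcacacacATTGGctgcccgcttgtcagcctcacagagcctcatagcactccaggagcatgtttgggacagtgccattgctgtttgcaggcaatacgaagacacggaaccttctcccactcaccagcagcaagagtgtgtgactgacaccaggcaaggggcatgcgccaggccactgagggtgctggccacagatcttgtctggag
Gm9866: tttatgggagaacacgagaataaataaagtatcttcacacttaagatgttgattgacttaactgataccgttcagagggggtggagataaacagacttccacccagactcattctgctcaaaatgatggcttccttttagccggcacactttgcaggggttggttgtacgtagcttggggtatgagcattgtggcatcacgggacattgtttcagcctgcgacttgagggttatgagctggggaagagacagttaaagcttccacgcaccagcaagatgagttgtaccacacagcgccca
Mtus2: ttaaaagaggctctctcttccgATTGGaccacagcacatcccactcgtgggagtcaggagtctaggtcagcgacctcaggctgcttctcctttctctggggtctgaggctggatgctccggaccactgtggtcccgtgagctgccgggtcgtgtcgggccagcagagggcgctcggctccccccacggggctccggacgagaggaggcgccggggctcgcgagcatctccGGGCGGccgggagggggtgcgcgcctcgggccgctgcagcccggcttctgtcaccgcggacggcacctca
AI197445 has 59.0% G and C with 4 CpG, Gm38413 54.7% with 8, Gm9866 47.0% with 8 and the Mtus2 window 69.0% with 28. CCAAT occurred in 41.1% of 112 member windows and 37.4% of all 32851 RefSeq windows, GGGCGG in 40.2% and 35.7%, TGACG in 29.5% and 20.8%, TATAAA in 14.3% and 13.6%, CANNTG in 68.8% and 72.3%, and TGANTCA in 7.14% and 7.81%. In the 14 windows of called members CANNTG occurred in 8, CCAAT in 7, GGGCGG in 2, TGACG in 2, TATAAA in 1 and TGANTCA in 0. A letter match is a description of the window and not evidence of binding.

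The called members were counted by chromosome and by gene structure, with no test. Chromosome 5, which carries Htt, holds 29 members, 8 of them called in Q175 against WT (27.6%, against 9.78% of all genes tested there). Chromosome 10 with 3 of 10 members called (30%), chromosome 12 with 5 of 17 (29.4%) and chromosome 18 with 2 of 8 (25%) had shares of a like size. Of all genes tested there, 10.9%, 11.4% and 13.4% were called. No member was called on chromosomes 2, 4, 6, 9, 11, 14, 15 and 19, where 8.39% to 11.9% of all genes were. On chromosome 5 the nearest called member to Htt, C030018K13Rik, lies 29.6 Mb away and lost its call in 16 of 24 fits with 1 library left out (adjusted p up to 0.118). Within 30 Mb of Htt there are 8 members, 1 of them called. In GENCODE M21, 41 members have a single exon in every transcript, of which 11 were called in either contrast (26.8%), against 27 of 230 with several exons (11.7%). Both splits were chosen after the values were seen. Of the 38 called members 14 overlap a longer row and 8 a coding one, against 120 and 55 of all 271.

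No member was called in TyrobpKO against WT or in Q175_TyrobpKO against Q175, where 0.117% and 0.158% of all genes were called, nor in the interaction of both alleles, where edgeR called none of 19667 genes (0%). At an unadjusted p under 0.05 there were 18, 18 and 14 members (6.64%, 6.64% and 5.17%), against 6.45%, 6.04% and 3.59% of all genes. DESeq2 and limma-voom also called no member. The smallest p in the first was for C230014O12Rik, with a median of 3.65 CPM in WT and 2.33 in TyrobpKO (-0.72 ± 0.18, adjusted p = 0.327), and the next for Gm36737 (-0.56 ± 0.17, adjusted p = 0.678). In the second they were Gm26660 (0.45 ± 0.14, adjusted p = 0.561) and Mir9-3hg (0.24 ± 0.08, adjusted p = 0.597). In the interaction they were C230014O12Rik (0.90 ± 0.26) and Gm15721 (0.78 ± 0.25), both with adjusted p = 0.999. No member was called between females and males, where 0.0814% of all genes were, nor in the sex difference of the Q175 effect, where 0% were. In each, 19 members (7.01%) had an unadjusted p under 0.05, against 4.05% and 3.79% of all genes.

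The members differed greatly in how much libraries of one genotype scattered. The SD of log2 CPM within genotypes had a median of 0.24 over the 271, from 0.081 to 1.32. The 5 most variable, named after their values were seen, were Gm10635 (SD 1.32), Gm40518 (1.29), Gm2824 (0.998), 5330416C01Rik (0.84) and Miat (0.61), a neuronal nuclear RNA. Gm40518 differed about 120-fold between its highest library and its lowest, which was near the floor at 0.109 CPM. Gm10635 and 5330416C01Rik had no count in 1 library each. Their levels stood beside the cortical marker sum. In the 4 libraries of lowest sum (251 to 299 CPM, from Q175_TyrobpKO, Q175 and WT) Gm10635 had 0 to 0.264 CPM and Gm40518 0.109 to 0.339 CPM, and in TyrobpKO replicate 1 (sum 1252 CPM) they had 8.07 and 13.03 CPM. Miat had 40.4 CPM in WT replicate 4 and 149 in WT replicate 5, with cortical sums of 299 and 1086 CPM. The part of cortical tissue in these levels was not tested. The libraries of highest choroid plexus sum, Q175 replicate 3 (6309 CPM) and Q175_TyrobpKO replicate 6 (1215 CPM), are also those of lowest cortical sum and of lowest Gm40518 (0.133 and 0.109 CPM). In Q175 replicate 2 and WT replicate 4, of next lowest cortical sum, choroid plexus sums were 395 and 339 CPM and Gm40518 had 0.283 and 0.339 CPM, while Q175_TyrobpKO replicate 4 had a choroid plexus sum of 1165 CPM and 7.79 CPM of Gm40518. The part of choroid plexus in these levels was not tested either. With the cortical sum as a covariate, an alternative chosen after seeing the data, Q175 against WT had 49 called members (13 higher and 36 lower) and the contrast without Tyrobp 32 (10 and 22). Without the 2 libraries of highest choroid plexus sum, also chosen after seeing the data, the counts were 34 and 20. The share of all genes called was not taken in either fit, so these counts cannot be set against the whole table.

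**Figure D5:**
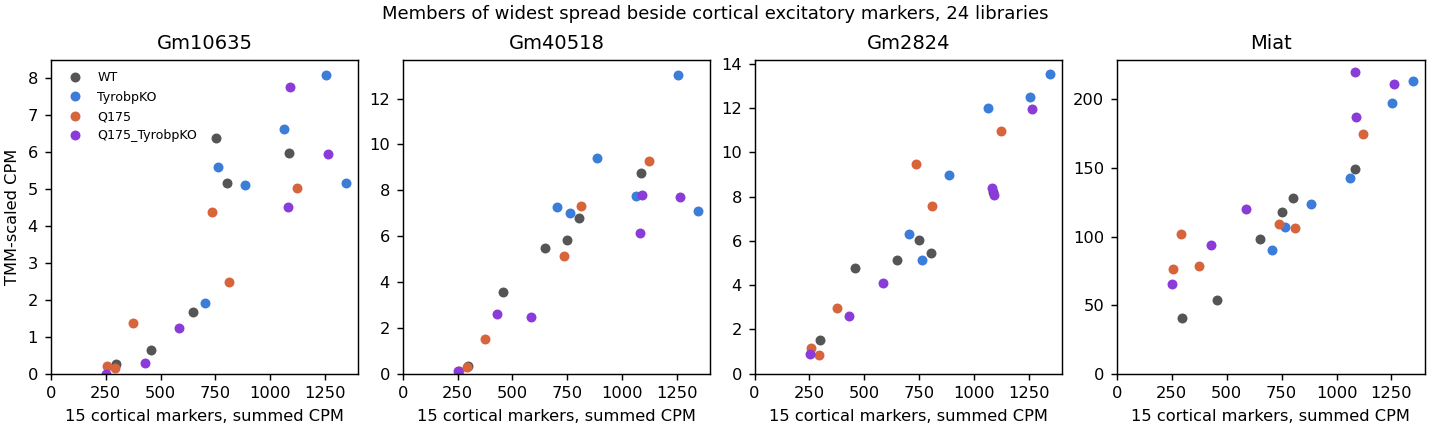
TMM-scaled CPM of Gm10635, Gm40518, Gm2824 and Miat (vertical, from 0) against the summed CPM of 15 cortical excitatory markers (horizontal) in 24 libraries, coloured by genotype. Libraries of low marker sum have low levels of all 4 in every genotype that holds such libraries.

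In a principal component analysis of the members' log2 CPM the first component held 29.2% of the variance and the second 21.2%. On the second all 12 Q175 carriers scored between -3.88 and -0.363 and all 12 others between 0.00151 and 5.47. On the first the 4 libraries of lowest cortical sum had the 4 highest scores, 3.71 to 5.59. The scores describe these libraries and were not tested.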

How the data were processed

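RNA was sequenced from 24 mouse striata on an Illumina Novaseq, per the labels' protocols. The authors deposited unnormalized read counts for each gene. The submitters' processing notes name STAR, featureCounts, DESeq2 and the human build GRCh38, although the deposited identifiers and coordinates are mouse and match GENCODE M21 on GRCm38. For versions and the strand setting no source used here gives a value.

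From the counts, edgeR 4.0.16 (R 4.3.3) was run with TMM scaling, the filterByExpr filter, a robust quasi-likelihood fit, a mean per genotype and a sex term, over all 24 libraries and 19667 genes, with Benjamini-Hochberg adjustment over all of them. The biological coefficient of variation was 16.2%. The rule for members uses CPM of total counts, and all other CPM are TMM-scaled. Errors are SE derived from the test, or SD. The 60 pairs of libraries of a genotype differed by more than counting noise (mean chi-square per gene 6.89 to 42.6). Alternatives were DESeq2 1.42.0, limma-voom 3.58.1, other scalings, filters and subsets, and each library left out in turn. The test was tested on simulated data.

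The members, the gene lists and the rules were chosen with earlier results of these data known. Named were known lincRNAs, the 8 highest per length, up to 12 called members per direction and contrast, the 2 of smallest p where none was called, the members at the limit, and called genes of each list. 16 lists came from general knowledge. Genes named otherwise are said to be so or are hosts, neighbours or overlapping genes.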

Additional observations from a re-analysis of the deposited data

Results flagged for a closer look

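For 39 named members, each genotype's 6 libraries were screened for a single library far from the other 5, 156 groups in all. In 9 groups the gap from the extreme library to its nearest neighbour took up an unusually large part of the range, and chance alone flags about 1 group in 20.

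Miat was 175.1 CPM in Q175 replicate 1, against 76.6 to 109 in the other 5. Q175 replicate 3 stood apart for 3 members: 4632415L05Rik at 25.7 CPM (others 29.2 to 31.2), Gm37233 at 7.25 CPM (4.62 to 5.40) and Gm16702 at 4.16 CPM (2.86 to 3.34). Gm36737 was 1.74 CPM in Q175_TyrobpKO replicate 5 (1.30 to 1.46), and Gm10419 was 97.8 CPM in Q175_TyrobpKO replicate 6 (112 to 119). Gm43597 was 22.1 CPM in TyrobpKO replicate 2 (26.0 to 27.9), and C230014O12Rik was 3.35 CPM in TyrobpKO replicate 6 (1.96 to 2.45). 5033430I15Rik was 2.57 CPM in WT replicate 6 (3.31 to 3.62). Q175 replicate 3 is also the library with the highest choroid plexus marker sum, 6309 CPM, and Q175 replicate 1 has the highest cortical marker sum of its genotype, 1120 CPM. Their part in these values was not tested.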

How the results depend on the processing

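No member called in a Q175 contrast changed direction under any alternative. Of the calls, 23 of 35 in Q175 against WT and 11 of 21 in Q175_TyrobpKO against TyrobpKO held in all 24 fits with 1 library left out, where the counts of called members ran from 26 (without WT replicate 1) to 38 and from 16 (without TyrobpKO replicate 5) to 27. Each sex alone, with 3 animals per genotype, gave 16 (males) and 5 (females) in the first contrast and 3 and 6 in the second. DESeq2 gave 46 and 34, and the cortical covariate 49 and 32. Other alternatives gave 31 to 44 and 18 to 29. The share of all genes called was not taken in the alternative fits, so their counts cannot be set against the whole table. Counting only members at the level in every genotype, a choice made after seeing the data, gave 28 and 14.

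The members' median log2 fold change in Q175 against WT was 0.0088 with total counts only, -0.0089 in males and -0.098 in females, and in Q175_TyrobpKO against TyrobpKO 0.052 with total counts only; that scaling moved the median of all genes by 0.057 and 0.058. The median in TyrobpKO against WT was 0.034 in males and -0.054 in females, and in the interaction 0.092 in females. For the sex difference of the Q175 effect it was -0.16 with total counts only and -0.11 to -0.063 with 1 library left out.

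Genes called in the lists of paraspeckles, speckles, exosome, Dlk1-Dio3 and snoRNA hosts numbered 5 and 4. Total counts only gave 11 and 11, males 1 and 1, females 1 and 0, the cortical covariate 9 and 8, the 2 genotypes alone 8 in the second, and 1 library left out 3 to 7 and 2 to 6. The causes were not tested. No paired analysis was possible because the labels give animal numbers and no replicate numbers. Of the members 140 lie under 5 CPM, where counting error limits small changes.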
